A study of Mus musculus with 32 samples.

Results

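Type I interferon induces a set of antiviral and regulatory genes, and 37 of them were followed here in donor T cells of mice with graft-versus-host disease. In this major-mismatch transplant, C57Bl6 T cells meet the tissues of Balb/c recipients. The 37 genes were found by their symbols among the 16741 genes of the deposited table, and all 37 were present. No filter removed any of them. The members were picked by symbol, with no cutoff on a measured value, but with earlier results of these data known, among them the fall in CD8 cells of allogeneic hosts. Bulk RNA sequencing covered 31 libraries of sorted conventional CD4, CD8 and regulatory (Treg) cells, all labelled as primary T cells of spleen and lymph nodes. The CD4 and CD8 sets each hold 2 libraries of donor cells taken before transplantation (day 0), 3 of untreated syngeneic controls, 4 of untreated hosts with the disease (allogeneic) and 4 of diseased hosts given Treg on day 0 (Treg-treated). The Treg set holds 2 libraries of day 0 and 3 of Treg-treated hosts. Cells were taken on day 6 by the sample titles and after 8 days by the series description. The labels used here do not give the conditioning, the cell doses, the animals' age, pooling, the strain of the syngeneic hosts, or whether the Treg libraries of treated hosts hold only the infused cells. The libraries carry a prefix, JL019 or JL027, and a number, and CD4, CD8 and Treg libraries of the same treatment, prefix and number were taken to come from 1 recipient.

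Type I interferons bind the receptor of IFNAR1 and IFNAR2, whose kinases JAK1 and TYK2 switch on the factor ISGF3, of which STAT2 and IRF9 are parts. ISGF3 binds the interferon-stimulated response element (ISRE) in the promoters of its target genes. Many target genes block viral RNA or protein at some step, and others, among them Stat2, Irf9, Irf7 and Usp18, carry or restrain the signal itself. In T cells type I interferon is known to act on survival, expansion and cytotoxic function. Interferon gamma acts through another element (GAS), and the targets of the 2 pathways overlap.

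The promoters of 5 members, picked among those whose window holds the core of this element, are shown to make it visible. Each stretch holds the 160 bases before the outermost transcription start of the gene in RefSeq (build GRCm38.p6), 5′ to 3′ on the gene's strand, and capitals mark the core of the element, GAAANNGAAA in either orientation, where overlapping matches run together. Isg15 lies on the minus strand (chr4:156200819-156200978), Ifit1 on the plus strand (chr19:34640729-34640888), Rsad2 on the minus strand (chr12:26456453-26456612), Bst2 on the minus strand (chr8:71537473-71537632) and Trim30a on the minus strand (chr7:104465194-104465353).
Isg15: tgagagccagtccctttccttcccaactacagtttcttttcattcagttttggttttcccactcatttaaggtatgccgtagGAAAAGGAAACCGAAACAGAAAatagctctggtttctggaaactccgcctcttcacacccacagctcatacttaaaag
Ifit1: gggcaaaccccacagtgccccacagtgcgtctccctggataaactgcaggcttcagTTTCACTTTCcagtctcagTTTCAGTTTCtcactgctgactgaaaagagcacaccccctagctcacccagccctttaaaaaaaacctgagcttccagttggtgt
Rsad2: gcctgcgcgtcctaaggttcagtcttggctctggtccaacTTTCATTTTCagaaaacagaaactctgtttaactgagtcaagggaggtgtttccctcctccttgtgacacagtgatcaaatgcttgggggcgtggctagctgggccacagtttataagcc
Bst2: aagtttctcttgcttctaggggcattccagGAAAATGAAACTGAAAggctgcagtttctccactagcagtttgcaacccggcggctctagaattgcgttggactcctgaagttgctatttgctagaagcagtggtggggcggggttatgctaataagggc
Trim30a: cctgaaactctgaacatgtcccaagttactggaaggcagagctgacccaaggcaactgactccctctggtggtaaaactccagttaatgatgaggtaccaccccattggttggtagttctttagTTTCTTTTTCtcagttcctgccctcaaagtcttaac
Isg15 holds 3 overlapping cores and Bst2 2, Ifit1 holds 2 separate ones, and Rsad2 and Trim30a hold 1 each. RefSeq windows of 250 bases before to 50 bases after a transcript's start were at hand for 28 members, 17 of the 34 windows being at the gene's outermost start and the others inside its span. Of the 28, 14 (50%) hold the core, against 3.99% of all 27025 genes with such windows. Ifi44, Slfn1, Oasl1, Oasl2, Ifi209 and Irf7 are among those without it. The GAS core, TTCNNNGAA, which reads the same on both strands, was found in 5 of the 28 members (17.9%) and in 9.55% of all genes with a window. These letters are a description of the promoters, not a measurement of binding. Windows of Ifi27l2a, Mx1, Oas2, Usp18, Dhx58, Zbp1, Rtp4, Parp9 and Parp14 were not used here.

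Values are counts scaled between libraries by the authors, and their sums per library ran from 20540551 to 39928133. The number of reads behind them is unknown. Comparisons used limma on log2(value + 1), which understates changes of low values, and a gene was called at a Benjamini-Hochberg adjusted p under 0.05 over all 16741 genes. One library stands apart. CD4 syngeneic replicate JL019-2 had 1659 for Cd4, 1956 for Cd8a and a sum of 3703910.0 over 15 myeloid markers (10.9% of its total), with the dendritic cell marker Siglech at 2092. The other 2 CD4 syngeneic libraries had 16526 and 14576 for Cd4 and myeloid sums of 88829 and 82475. Counts of called genes that rest on this group are therefore given with and without it. Foxp3, the defining Treg factor, was lower in the day 0 Treg libraries (198 and 442) than in the day 0 CD4 libraries (1145 and 978), against the label. In Treg of treated hosts it was at 265 to 293, above CD4 cells of treated hosts (127 to 178) and below allogeneic CD4 cells (337 to 579), and in CD8 cells it was at 0 to 3.52 in syngeneic and 103 to 453 in allogeneic hosts. Ikzf2, another Treg marker, named after its values were seen, was at 19287 and 14182 in day 0 Treg and 1619 and 1769.9 in day 0 CD4 libraries, and at 11615 to 14862 in Treg and 608 to 1132 in CD4 cells of treated hosts. In bulk samples, fewer cells of a type and less RNA per cell cannot be told apart.

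The highest and the lowest levels of the 37 genes were spread over several groups. For 19 of 37 genes the highest of the 10 group means was in Treg from Treg-treated hosts. For 12 and 7 the lowest was in CD8 cells of Treg-treated and of allogeneic hosts, and no member was highest in either. At day 0 CD4, CD8 and Treg cells were lowest for 6, 5 and 5 members. CD8 cells of syngeneic hosts were highest for 5, and CD4 cells of syngeneic and of Treg-treated hosts for 4 each. Each gene was also set against its own mean over the 10 groups on the log2 scale, and the median over the members was taken in each library. That median ran from 0.882 to 0.973 in the 3 Treg libraries of treated hosts, 0.178 to 0.602 in CD8 syngeneic libraries and 0.0941 to 0.517 in CD4 syngeneic libraries. In CD4 allogeneic libraries it ran from -0.0910 to 0.161, and in CD4 cells of Treg-treated hosts from 0.00746 to 0.570. It was -0.781 to -0.325 in CD8 allogeneic libraries and -0.730 to -0.429 in CD8 cells of Treg-treated hosts, against -0.345 to -0.171 in CD8, -0.352 to -0.303 in CD4 and -0.386 to -0.192 in Treg at day 0.

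**Figure D1:**
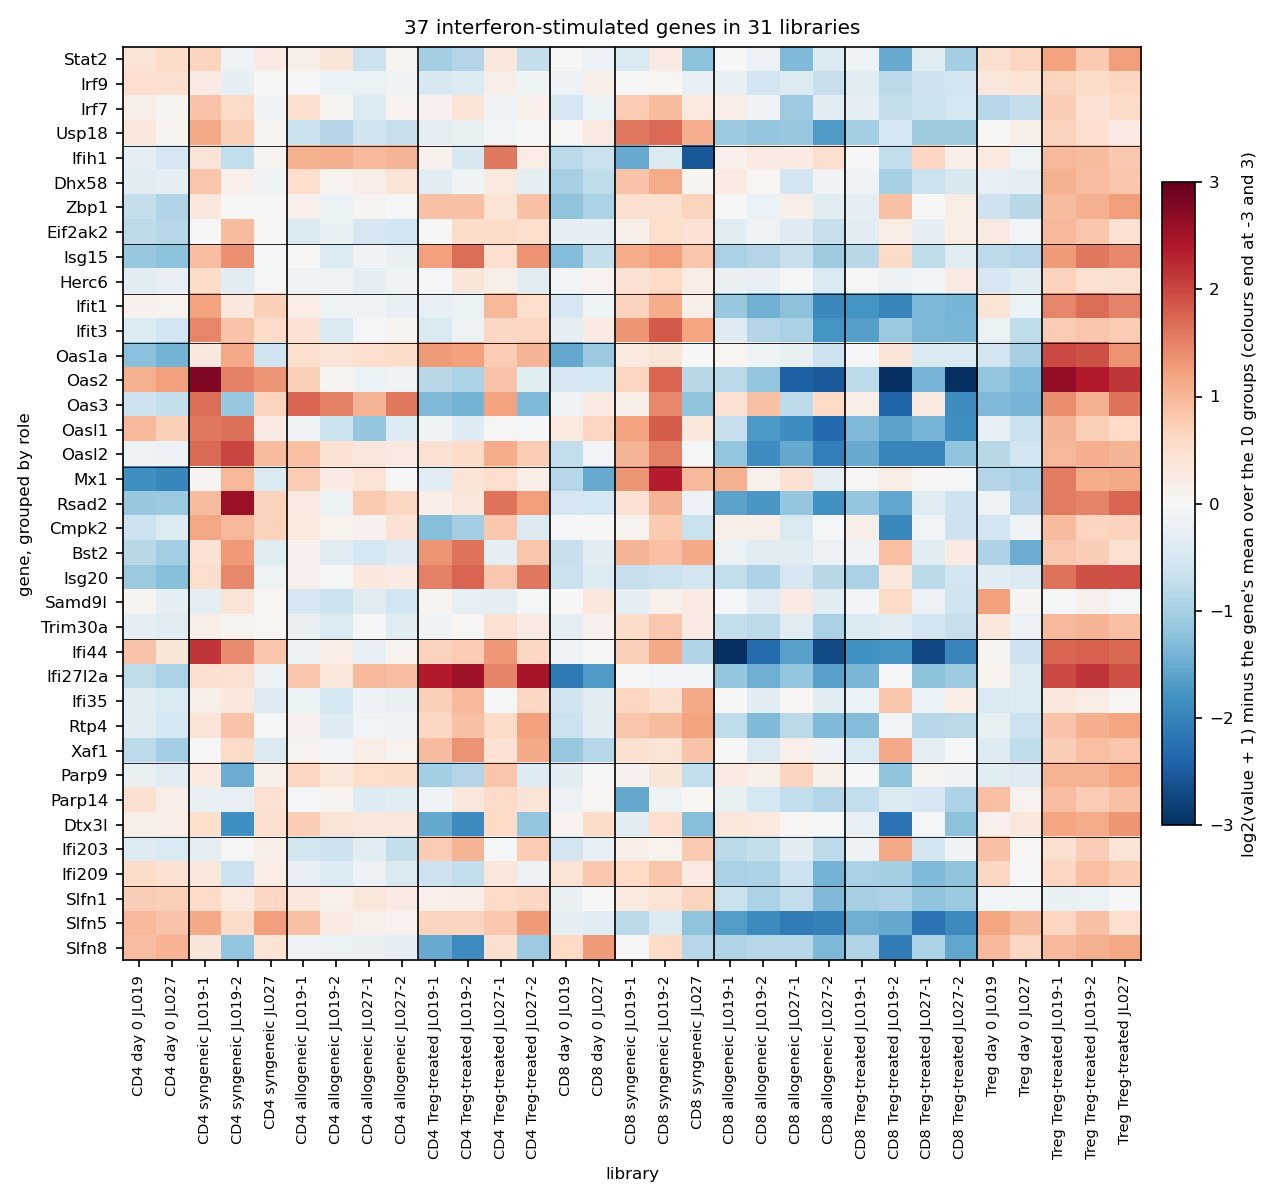
Each row is 1 of the 37 genes and each column 1 of the 31 libraries, ordered by cell type and treatment. Colour gives log2(value + 1) minus the gene's mean over the 10 groups, and vertical lines part the groups. CD8 cells of allogeneic and Treg-treated hosts are mostly blue, and Treg of treated hosts are mostly red.

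In syngeneic hosts, the study's transplant controls, a share of these genes was higher than in day 0 cells of the same type. In CD8 cells 17 of 37 members rose and none fell, where 13.0% of all genes rose and 11.3% fell. In CD4 cells 12 rose and none fell, beside 9.90% and 3.13% of all genes. 8 members were in both counts: Bst2, Ifi27l2a, Ifit3, Isg15, Mx1, Oas1a, Oasl2 and Zbp1. The median log2 change was 0.68 in CD8 and 0.57 in CD4, and -0.10 and -0.04 over all genes. Isg15 makes a ubiquitin-like protein that is joined to other proteins. It stood at 452 and 679.9 in the day 0 CD8 libraries and at 2439, 2607 and 1988 in the syngeneic ones, with no overlap (log2 change 2.07, SE 0.360, limma adjusted p 2.19e-04). Mx1, a GTPase against influenza-like viruses that is truncated by a deletion in many laboratory strains, C57BL/6 among them, was at 216 and 136 and then at 986, 2011 and 767 (log2 change 2.74, SE 0.395, limma adjusted p 2.15e-05). Zbp1, a sensor of left-handed nucleic acid that can start necroptosis, went from 1674 and 2007 to 5465, 5437 and 6216 (log2 change 1.64, SE 0.239, limma adjusted p 2.53e-05). All 3 syngeneic CD8 libraries lay above both day 0 libraries for each of these genes, and for Ifi27l2a, a small protein of the ISG12 family, the change was 1.86 (SE 0.324, limma adjusted p 2.20e-04).

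In CD4 cells Isg15 was at 509 and 473 on day 0 and 2113, 2896 and 1083 in syngeneic hosts (log2 change 1.93, SE 0.360, limma adjusted p 3.92e-04). Rsad2, whose product viperin makes a chain-terminating nucleotide, was at 155 and 156 and then 653, 2048 and 549 (log2 change 2.53, SE 0.473, limma adjusted p 4.02e-04), and its highest value came from replicate JL019-2. Isg20, an exonuclease, had its highest value, 4763, there too. Leaving that library out gave 9 members higher and 0 lower. The CD4 count did not hold when only the 2 groups were fitted, which gave 0, and with quantile normalisation 13 were higher and 2 lower. Without day 0 replicate JL019 it was 8 and without JL027 6, and the CD8 count without day 0 replicate JL019 was 8. The 15 myeloid markers summed to 6441 to 8862 in day 0 and 42481 to 68851 in syngeneic CD8 libraries, with Csf1r at 89.8 to 120.4 and 30.0 to 109.8, and to 2970.0 to 4219.6 in day 0 CD4 libraries, where up to 4 of them were at 0. Of the 15, 3 were higher in syngeneic CD8 and 14 in syngeneic CD4 cells than at day 0 (11 higher and 0 lower in CD4 cells without JL019-2). With that sum as a covariate 13 members were higher and 1 lower in CD8 cells, with 12 of the 17 calls kept. A covariate's effect is estimated from the spread within groups, and CD4 syngeneic JL019-2 lies far outside its group in this sum. Fits with the myeloid sum therefore rest much on that library, and none was run without it. The sums of syngeneic and day 0 libraries do not overlap, so these fits cannot fully part them from the host. In CD4 cells none of the 12 calls was kept: Isg15 had a change of 0.51 and Rsad2 of 1.40 (limma adjusted p 0.589 and 0.269), Bst2 turned to -0.55, and 4 other members, Ifit1, Oas3, Parp9 and Dtx3l, were called higher. In CD8 cells 9 of 11 B cell markers were lower in syngeneic hosts than at day 0 and 1 higher (sums of 3304 to 4111 in syngeneic and 2296 to 2955 in day 0 libraries), and 4 of 9 erythroid markers were lower and none higher (sums of 3351 to 11185 and 32039.5 to 36283, in the same order). In CD4 cells 5 of the 9 erythroid markers were higher (sums of 4921 to 469408 and 769 to 1501), and without JL019-2 none of them was called. The part of these markers was not tested. The length slopes explained below were -0.105 to -0.00824 in syngeneic and 0.0118 to 0.0586 in day 0 CD8 libraries, and -0.0469 to 0.0416 and 0.0327 to 0.0517 in CD4 libraries, lower without overlap in CD8 cells alone. The median gene span was 10.3 kb for the members called in CD8 cells and 19.3 kb for the others, and 11.0 kb and 19.0 kb in CD4 cells. With the slope as a covariate 16 of the 17 CD8 calls and 12 of the 12 CD4 calls were kept.

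In allogeneic hosts CD8 cells had lower levels of most of these genes than CD8 cells of syngeneic hosts. Of 37 members 24 fell and 1 rose, where 10.7% of all genes fell and 10.4% rose. The members' median log2 change was -0.99, against 0.02 over all genes, and 33 of 37 had a negative change. The syngeneic libraries are the same as in the comparison with day 0. The members were chosen with this fall known, so its size here is not independent evidence of it.

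Of the 4 members that carry or restrain the signal, 2 fell. Usp18, the protease that removes ISG15 and blocks the interferon receptor, stood at 5688, 6165 and 4046 in syngeneic and 872, 831, 858 and 580.3 in allogeneic CD8 libraries. Every allogeneic value was below every syngeneic value, and below both day 0 values (1919.7 and 2280.1). The difference passed the test (log2 change -2.75, SE 0.212, limma adjusted p 1.56e-10). Irf7, the factor that amplifies interferon production, went from 3963 ± 884 (SD, n = 3) to 2051 ± 692 (SD, n = 4) (log2 change -0.99, limma adjusted p 0.00474). Stat2 and Irf9, parts of ISGF3, had log2 changes of -0.002 and -0.41 and did not pass the test (limma adjusted p 0.999 and 0.0836).

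Among the genes that act on RNA, both IFIT genes, which bind foreign RNA ends, fell. Ifit3 was at 3327, 4741 and 2984 in syngeneic libraries and at 1001, 715, 667 and 378 in allogeneic ones, with a gap between the groups (log2 change -2.47, SE 0.299, limma adjusted p 4.81e-07). Ifit1 was at 2349, 3114 and 1633 and 661, 529, 613 and 375 (log2 change -2.10, limma adjusted p 2.19e-06). Ifit1 carries 2 ISRE cores in the promoter shown above. The oligoadenylate synthetase family, whose active members switch on RNase L, split: Oas2, Oasl1 and Oasl2 fell, with log2 changes of -2.25, -2.76 and -2.49, while Oas1a (-0.44) and Oas3 (0.15) did not pass (limma adjusted p 0.284 and 0.909). Oas2 was low, at 86.0, 66.7, 26.8 and 25.6 in allogeneic libraries and 235, 509 and 83.6 in syngeneic ones, and the groups overlapped. How the counting divided reads between near-identical family members (Oas1a and Oas1g, Ifit3 and Ifit3b, the Ifi200 genes, the Schlafens) is not given, so single genes of these families are uncertain.

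The 4 sensors and RNA-activated enzymes also split. Ifih1, which encodes the double-stranded RNA sensor MDA5, was the 1 member that rose: it stood at 304, 648 and 149 in syngeneic and at 969, 1045, 1035 and 1263 in allogeneic CD8 libraries (log2 change 1.79, SE 0.393, limma adjusted p 0.00130). The allogeneic values lay above the syngeneic ones without overlap, and the syngeneic values differed from each other several-fold. They followed the length slopes explained below (-0.0582, -0.00824 and -0.105 in the same order), and the gene spans 50.6 kb. With the slope as a covariate the change was 1.08, still called, and without syngeneic JL027 1.27. Dhx58, the sensor LGP2, Zbp1, and Eif2ak2, the kinase PKR that halts translation, fell, with log2 changes of -0.77, -0.64 and -0.77. These 3 had limma adjusted p of 0.0275, 0.0227 and 0.0134, and their calls did not hold with every library left out in turn. Dhx58 was not called without CD8 syngeneic JL019-1 or JL019-2 or allogeneic JL027-1 or JL027-2 (limma adjusted p up to 0.152). Zbp1 was not called without syngeneic JL019-1 or JL027 or allogeneic JL019-2 or JL027-2 (up to 0.10030), and Eif2ak2 not without syngeneic JL019-2 or JL027 or allogeneic JL027-2, nor with the summed myeloid markers as a covariate (0.0821).

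Isg15 fell in CD8 cells from 2439, 2607 and 1988 to 572, 607, 693 and 533 (log2 change -1.96, limma adjusted p 1.86e-05), close to its day 0 values of 452 and 679.9. Herc6, the ligase that joins ISG15 to proteins in mouse, fell by 0.66 on the log2 scale. Of 7 antiviral effectors, Mx1, Rsad2, Bst2 (tetherin, which holds budding virus at the cell surface) and Trim30a fell, with log2 changes of -1.20, -2.01, -1.28 and -1.25. Cmpk2, the nucleotide kinase gene beside Rsad2, Isg20 and Samd9l had changes of -0.10, -0.12 and -0.15 and did not pass. Of the 5 other induced genes Ifi44, Ifi27l2a, Ifi35 and Rtp4 fell and Xaf1 did not pass. Rtp4, a chaperone of receptors, stood at 4373, 4756 and 5658 and 1457, 986, 1396 and 987 with no overlap (log2 change -2.05, SE 0.243, limma adjusted p 3.60e-07). Ifi44 had the most negative change of the 37, -2.88, from 267, 357 and 85.6 to 11.9, 32.1, 51.8 and 24.5.

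The DNA-binding PYHIN genes Ifi203 and Ifi209 fell. Ifi203 went from 6343 ± 1716 (SD, n = 3) to 3119 ± 528 (SD, n = 4) and Ifi209 from 8389.6 ± 1569.8 (SD, n = 3) to 2848 ± 607 (SD, n = 4). Of the 3 Schlafen genes, a family named for slowing the growth of thymocytes, Slfn1 and Slfn5 fell. Slfn1 was at 1927, 2086 and 2474 in syngeneic and 979, 808, 936 and 627 in allogeneic CD8 libraries, all of the latter also below day 0 (1347 and 1561), and the difference passed the test (log2 change -1.38, SE 0.165, limma adjusted p 3.86e-07). Parp9 and its partner Dtx3l, a ubiquitin ligase pair, and Parp14 did not pass, with changes of 0.40, 0.52 and -0.05.

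Of the 25 CD8 calls 16 held in every alternative run, and Bst2, Dhx58, Eif2ak2, Herc6, Ifi203, Ifi35, Mx1, Oas2 and Zbp1 did not. Without syngeneic JL019-2 Oas2, Mx1 and Herc6 were not called (limma adjusted p 0.0734, 0.102 and 0.0574), and without JL027 Ifi203 and Ifi35 (0.116 and 0.0785). Ifi203 and Bst2 were not called with the summed myeloid markers as a covariate (0.0619 and 0.0689), Ifi203 not with the length slope as one (0.0511), and Mx1 not within prefix JL019 (0.109). The CD8 count stood at 20 to 25 members when each library was left out in turn, and within the libraries of prefix JL019 it was 1 higher and 25 lower. Several marker sums of other cells also differed. The sum of 15 myeloid markers was 42481 to 68851 in syngeneic and 13669 to 19552 in allogeneic CD8 libraries, mostly S100a8, S100a9 and Lyz2, and none of the 15 was at 0 in a syngeneic library (at most 1 in an allogeneic one). Of the 15, 2 were called higher and 5 lower. The macrophage markers Csf1r, Adgre1 and C1qa were at 30.0 to 109.8, 8.28 to 20.9 and 3.35 to 14.2 in syngeneic libraries and at 1.84 to 22.2, 0 to 3.39 and 3.44 to 14.6 in allogeneic ones, lower without overlap for the first and the second. The sum of 11 B cell markers was 3304 to 4111 and 1186 to 1311, with at most 1 at 0 in a library, but only 1 of them, Cd22, was called (1424 to 3083 and 265 to 430.0), and the median change of the 11 was -0.02. The sum of 7 NK cell markers was 9209.5 to 12149.5 in syngeneic and 96427 to 146247 in allogeneic libraries, most of it Gzma (1557 to 3506 and 83340.0 to 126320.0), a granzyme that cytotoxic T cells also make. Of the 7, 2 were called higher and 3 lower, and Klra8 was at 0 in all 4 allogeneic libraries. The sum of 8 plasmacytoid dendritic cell markers was 3324 to 3684 and 2666 to 5394, and 2 were called higher and 2 lower. Siglech, the defining marker of these cells, was at 28.9 to 47.3 and 4.01 to 15.6. With the summed myeloid markers as a covariate 22 members were called lower and 1 higher, with 21 of the 25 calls kept. The myeloid sums did not overlap between syngeneic and allogeneic CD8 libraries, so this fit cannot fully part them from the kind of host. It also rests much on CD4 syngeneic JL019-2, whose sum lies far outside its group. With the length slope of each library (below) as a covariate 27 were lower and 1 higher, with 23 kept. The part of the B, NK and dendritic cell markers was not tested.

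**Figure D2:**
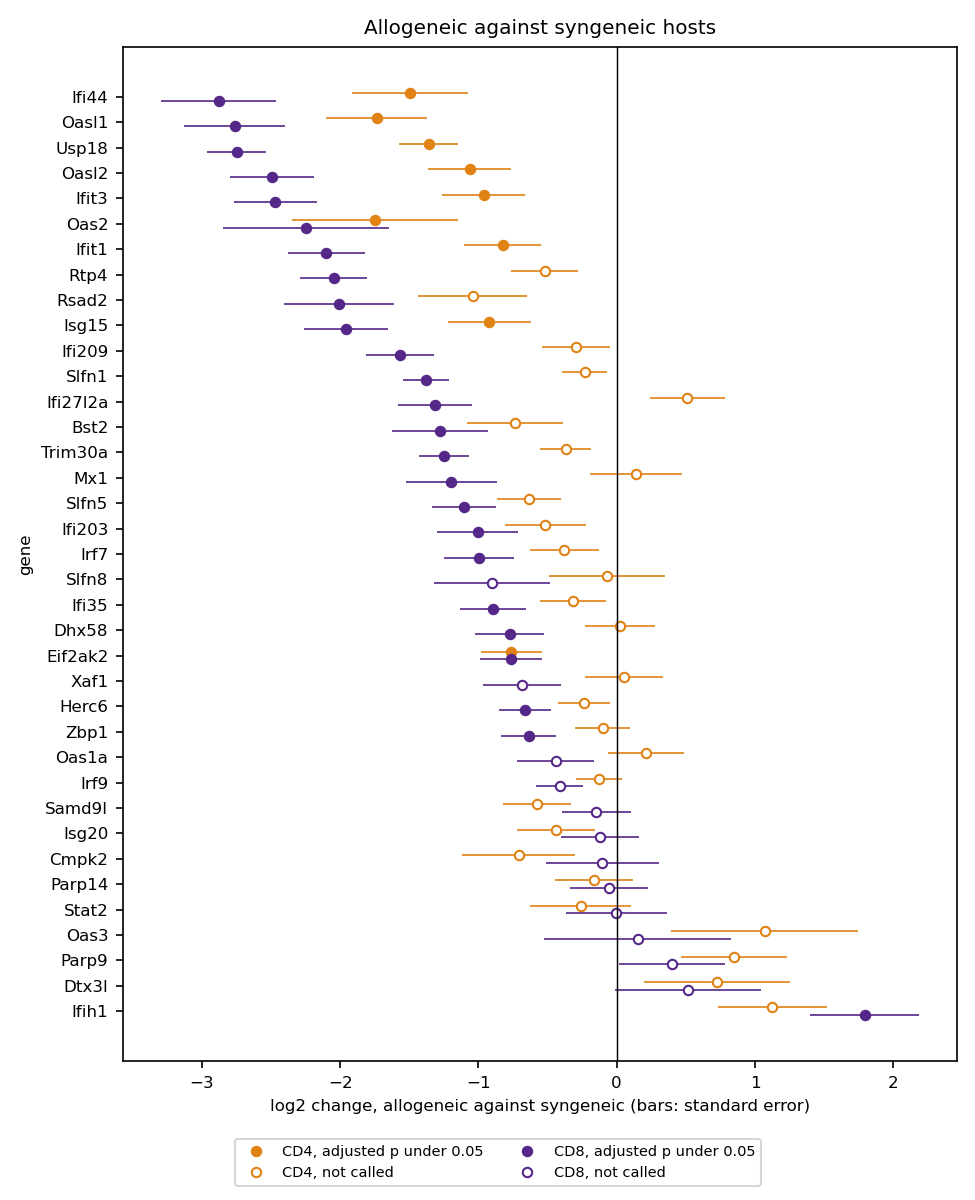
Log2 changes of the 37 genes in allogeneic against syngeneic hosts, with standard errors, for CD4 (orange) and CD8 cells (purple). Filled points passed the test: 9 in CD4 and 25 in CD8 cells. Most CD8 points lie left of the CD4 point of the same gene, and Ifih1 lies at the far right in both.

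In CD4 cells the same comparison called fewer members. Of 37, 9 fell and none rose, beside 7.91% and 6.69% of all genes, with a median log2 change of -0.37. The 9 were Usp18, Oasl1, Oasl2, Oas2, Ifi44, Ifit1, Ifit3, Isg15 and Eif2ak2, and each had also fallen in CD8 cells. Usp18 stood at 4163, 3112 and 1997 in syngeneic and 1195, 1022, 1238 and 1161 in allogeneic CD4 libraries, without overlap (log2 change -1.36, SE 0.212, limma adjusted p 4.06e-05). Oasl1, which restrains Irf7 translation in mouse, was at 720.2, 760.4 and 286 and 224, 154, 107 and 182 (log2 change -1.74, SE 0.363, limma adjusted p 0.00123), and Ifi44 at 724, 434 and 287 and 142, 189, 136 and 173 (log2 change -1.50, SE 0.418, limma adjusted p 0.0141). Oasl2 was at 1570.3, 1946 and 944 and 902, 655, 618 and 587 (log2 change -1.06, SE 0.303, limma adjusted p 0.0160). None of these 4 genes overlapped between the groups. Ifih1 had a positive change in CD4 cells too, 1.12, which did not pass (limma adjusted p 0.0542), with allogeneic values of 1829, 1855, 1710.4 and 1756.

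The CD4 result depended on single libraries. Without CD4 syngeneic replicate JL019-2 5 members were called lower and 0 higher, and Oasl2, Isg15, Ifit3, Oas2 and Eif2ak2 were no longer called. Ifi44 and Oasl2 were not called without syngeneic JL019-1 either. Leaving out any one of the other libraries gave 4 to 10, with 4 without syngeneic JL019-1 and 5 without allogeneic JL019-2, JL027-1 or JL027-2. Within prefix JL019 none was called. With libraries centred on their medians 1 was higher and 5 lower, and with array weights 16 were called. Fitted on the 2 groups alone, 4 were lower and 1 higher. Myeloid markers summed to 9174 to 16317 in allogeneic CD4 libraries, under the syngeneic sums given above, and 10 of the 15 were called lower (without JL019-2 0 higher and 7 lower). With that sum as a covariate 6 were lower and 1 higher, 3 of the 9 calls (Usp18, Ifit1 and Oas2) were kept, and Isg15 turned to 0.08. Of 8 plasmacytoid dendritic cell markers 4 were lower and 1 higher (1 higher and 2 lower without JL019-2). Of the 9 erythroid markers 5 were also lower in allogeneic CD4 cells, and 3 without JL019-2 (sums of 471 to 10836, against 4921 to 469408 in all 3 syngeneic libraries), and their part was not tested.

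Whether the change from syngeneic to allogeneic hosts differed between CD8 and CD4 cells was tested directly. For 7 members the CD8 change was more negative, and for none was it more positive, beside 1.96% and 2.69% of all genes. They were Slfn1 (difference -1.15, SE 0.233, limma adjusted p 0.00314), Ifi27l2a (-1.82, 0.383 and 0.00406), Usp18, Rtp4, Ifit3, Trim30a and Ifi209. Ifi27l2a had opposite signs in the 2 cell types. In CD8 cells it went from 15428, 14568 and 14611 in syngeneic to 6835, 5544, 6719 and 5009 in allogeneic hosts (log2 change -1.31, SE 0.271, limma adjusted p 6.83e-04). In CD4 cells it went from 21408, 20954 and 13727 to 27570.2, 19296, 29963 and 29114, and that change, 0.51, did not pass (limma adjusted p 0.242). Without CD4 syngeneic replicate JL019-2 the difference was called for 6 members, and over all libraries left out in turn for 4 to 10; without CD4 allogeneic JL019-1 or JL027-1, CD8 allogeneic JL027-2, or CD8 syngeneic JL019-1 or JL019-2 it was 4. For the other 30 members a difference was not shown.

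Against day 0 cells the allogeneic cells were mixed. In CD4 cells 10 members were higher and 4 lower (backgrounds 14.4% and 9.61%), and in CD8 cells 5 were higher and 11 lower (backgrounds 16.3% and 14.2%). The 4 lower in CD4 cells and the 5 higher in CD8 cells lay near these shares. Mx1, Oas1a, Zbp1 and Xaf1, a binder of the apoptosis inhibitor XIAP, were higher than at day 0 in both. Mx1 was at 216 and 136 at day 0 and 825, 433, 538 and 328 in allogeneic CD8 cells (log2 change 1.54, SE 0.375, limma adjusted p 0.00249). Usp18, Oasl1 and Ifi209 were lower than at day 0 in both. Slfn5 in CD8 cells was at 696 and 666 at day 0 and 264, 222, 196 and 205 in allogeneic hosts (log2 change -1.62, SE 0.263, limma adjusted p 2.69e-05). With libraries centred on their medians the CD4 counts were 7 higher and 5 lower, and with quantile normalisation 10 and 7. With day 0 libraries left out in turn the CD4 count was 5 without either, and the CD8 count 8 without JL027, where Mx1 was not called (limma adjusted p 0.0612). Fitted on the 2 groups alone the CD4 counts were 15 higher and 10 lower, and with array weights 15 and 9. In CD4 cells the myeloid markers had 7 higher and 0 lower of 15 called, the B cell markers 1 higher and 4 lower of 11 and the NK cell markers 3 higher and 0 lower of 7. In CD8 cells these were 5 higher and 2 lower of 15, 0 higher and 6 lower of 11 and 2 higher and 3 lower of 7, and 0 higher and 4 lower of 9 for the erythroid markers. With the myeloid sum as a covariate 9 of the 14 CD4 and 15 of the 16 CD8 calls were kept, and the part of the other markers was not tested.

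**Figure D3:**
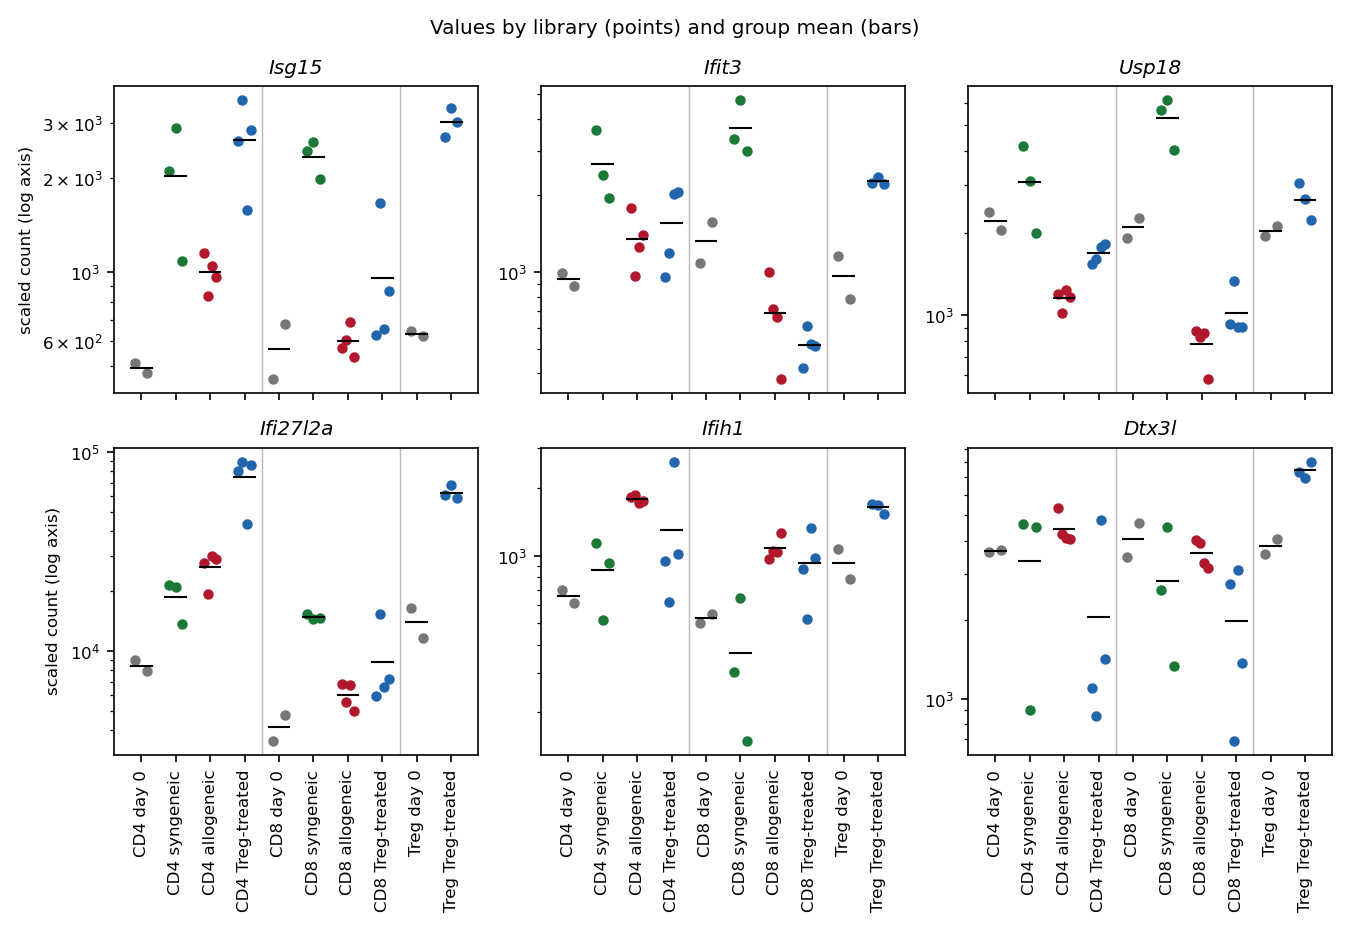
Scaled counts of 6 members by library on a log axis, with bars at the group means, in grey for day 0, green for syngeneic, red for allogeneic and blue for Treg-treated hosts. Usp18 and Ifit3 are lowest in the red and blue CD8 groups, Ifi27l2a is highest in CD4 and Treg cells of Treg-treated hosts, and the blue CD4 points of Ifih1 and Dtx3l lie far apart.

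Treg treatment was compared with untreated disease in each cell type. In CD4 cells 11 members were higher and 2 lower in Treg-treated hosts, beside 10.7% and 11.5% of all genes, with a median log2 change of 0.40. The 11 were Ifi27l2a, Isg15, Isg20, Ifi203, Bst2, Rtp4, Xaf1, Eif2ak2, Ifi35, Zbp1 and Usp18, and the 2 were Oas3 and Dtx3l. Ifi27l2a was at 27570.2, 19296, 29963 and 29114 in allogeneic and 80301, 89501, 43516 and 85767 in Treg-treated CD4 libraries (log2 change 1.46, SE 0.251, limma adjusted p 0.00241). Isg15 was at 1151, 837, 1042 and 964 and 2636, 3566, 1585 and 2858 (log2 change 1.36, SE 0.279, limma adjusted p 0.00680), Isg20 at 1933, 1711, 2176 and 2079.7 and 4979, 5902, 3072 and 5258 (log2 change 1.25, SE 0.261, limma adjusted p 0.00739). Ifi203 was at 3308, 3132, 3902 and 2968 and 8198, 9814, 4753 and 8277 (log2 change 1.18, SE 0.272, limma adjusted p 0.0103). The groups did not overlap for any of these 4, which were picked by lowest p, and in each the lowest Treg-treated value came from replicate JL027-1.

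The 2 members that fell had the reverse order. Oas3 was at 3219, 2757, 1939.9 and 2889 in allogeneic libraries and at 384, 360.3, 2205 and 383 in Treg-treated ones (log2 change -2.18, SE 0.629, limma adjusted p 0.0194), and Dtx3l at 5356, 4229, 4088 and 4058 and 1101, 855, 4823 and 1419.7 (log2 change -1.47, SE 0.491, limma adjusted p 0.0344). For both, replicate JL027-1 lay within the allogeneic range and the other 3 libraries below it. Neither was called when any of Treg-treated JL019-1, JL019-2 or JL027-2 or allogeneic JL019-1 or JL019-2 was left out, nor Dtx3l without allogeneic JL027-2. Parp9 (1752, 1906, 6289 and 2715), Cmpk2 (312, 363, 1313 and 559) and Ifih1 (943, 619, 2619.7 and 1021) also had their highest Treg-treated value in JL027-1 and did not pass.

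This order went with a trend of the libraries with gene length. The slope of log2 value on log2 gene span in the genome, over all genes with a span, was -0.0986, -0.121 and -0.0689 in 3 Treg-treated CD4 libraries and 0.0159 in JL027-1, against 0.0195 to 0.0452 in the 4 allogeneic ones. Negative slopes mean relatively lower values for long genes. Over all groups the 8 libraries with a slope under -0.04, a limit set after the values were seen, had Dtx3l at 688 to 2589.5, and the other 23 at 2726 to 8018. Within the first set the order was not strict: CD8 syngeneic JL019-1 had the highest Dtx3l (slope -0.0582), and CD4 syngeneic JL019-2, with a less negative slope (-0.0469), had 900.2. Isg15, at 1.40 kb the shortest member, and Bst2, at 3.22 kb, were among the genes that rose, as was Rtp4, at 94.0 kb the longest, and Dtx3l spans 12.5 kb. With each library's length slope as a covariate 0 members were called, and Oas3 and Dtx3l had changes of -0.04 and 0.23. The slope and the treatment moved together in 3 of the 4 Treg-treated CD4 libraries. With a trend in gene span taken out of each library instead, 12 were higher and 2 lower.

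Within prefix JL019 13 members were higher and 9 lower in Treg-treated CD4 cells, and within JL027 none was called, each fit being 2 libraries against 2. Leaving out CD4 allogeneic JL019-2 or Treg-treated JL019-1 or JL019-2 gave 7 members, all higher, leaving out Treg-treated JL027-2 gave 6, all higher, and leaving out JL027-1 gave 10 higher and 7 lower. Myeloid markers summed to 28246 to 98546 in Treg-treated and 9174 to 16317 in allogeneic CD4 libraries, with none of the 15 at 0. Of the 15, 2 were called higher and 1 lower, beside 10.7% and 11.5% of all genes. With their sum as a covariate 1 member, Ifi27l2a, was called. The sums did not overlap, so this fit cannot fully part them from the treatment.

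**Figure D4:**
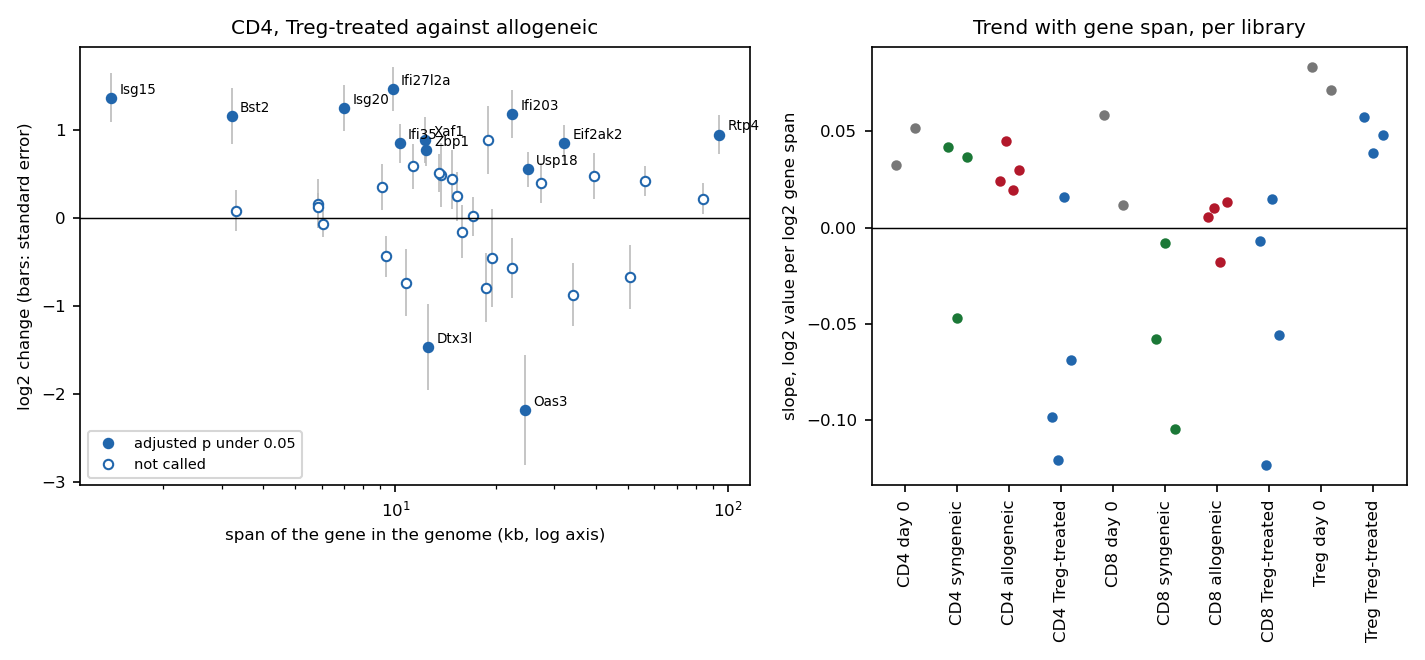
Left, the log2 change of the 37 genes in CD4 cells of Treg-treated against allogeneic hosts, with standard errors, against the span of the gene in the genome on a log axis, with filled and named points for the 13 members that passed. Right, the slope of log2 value on log2 gene span in each library. 3 of 4 CD4 Treg-treated, 2 of 4 CD8 Treg-treated and 2 of 3 CD8 syngeneic libraries lie below -0.05.

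In CD8 cells no member passed the test for Treg-treated against allogeneic hosts, with limma calling 0 of 37 and 2 at an unadjusted p under 0.05. Of all genes 0.0478% were called higher and 0.0179% lower, a background of almost no calls. The median log2 change of the members was 0.04. Usp18 was at 872, 831, 858 and 580.3 and 929.9, 1329, 903 and 907 (log2 change 0.37, SE 0.196, limma adjusted p 0.473), and replicate JL019-2 was the high one, as it was for Ifi27l2a (5955, 15368, 6567 and 7275), Zbp1 (3234, 7132, 3935 and 4547) and Ifi203 (4325, 10846, 3288 and 4482). That library also had the most negative length slope of the 31. The direct test of whether the Treg effect differed between CD8 and CD4 cells called 0 members by limma, with 3 at an unadjusted p under 0.05 (backgrounds 0% higher and 0.00597% lower) and 11 with array weights, and a difference in the Treg effect was not shown without weights. Compared with syngeneic hosts, CD8 cells of Treg-treated hosts had 20 members lower and 1 higher (backgrounds 8.63% and 9.56%) and share the syngeneic libraries with the comparison above. The lowest p among them were those of Usp18, Ifit3, Slfn1 and Oasl2, with log2 changes of -2.38, -2.82, -1.52 and -2.50, and Oas2 and Oasl1 fell by more than all of these but Ifit3 (-2.75 and -2.65). The 1 that was higher was Ifih1, at 869, 524, 1330.5 and 979.5 (log2 change 1.50, SE 0.393, limma adjusted p 0.00664), which was not called without syngeneic JL027. Of the 7 NK cell markers 3 were higher and 4 lower in this CD8 comparison. Of the 15 myeloid and of the 8 plasmacytoid dendritic cell markers 2 were higher and 2 lower each. Of the 11 B cell markers 0 were higher and 1 lower. The part of the NK, dendritic and B cell markers was not tested. In CD4 cells of Treg-treated hosts 5 members were higher and 4 lower than in syngeneic hosts (backgrounds 8.23% and 8.43%). The count of those lower lay near the background. Ifi27l2a, Zbp1, Xaf1, Oas1a and Isg20 were higher and Usp18, Oas2, Oasl1 and Cmpk2 lower. Without CD4 syngeneic replicate JL019-2 the counts were 5 and 5, and without Treg-treated JL027-1 7 and 10. They were 2 and 3 without Treg-treated JL019-1, 1 and 3 without JL019-2, 1 and 5 without JL027-2, and 2 and 0 without syngeneic JL019-1. Fitted on the 2 groups alone 1 member was called in all, and with array weights 25. Of the 15 myeloid markers 8 were lower in Treg-treated CD4 cells and of the 9 erythroid markers 4 (without syngeneic JL019-2 2 higher and 4 lower and 0 higher and 1 lower). With the myeloid sum as a covariate 10 members were higher and 11 lower, with 8 of the 9 calls kept. With the length slope as a covariate 2 of the 9 calls were kept. With libraries centred on their medians the counts were 7 and 3, and with quantile normalisation 2 and 4.

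Treg of Treg-treated hosts, which had the highest group mean for 19 members, were set against day 0 Treg. Of 37 members 21 rose and none fell, beside 8.43% and 4.89% of all genes, with a median log2 change of 1.23 and -0.07 over all genes. Of the members that rose, 14 had also risen in syngeneic CD8 cells. Oas1a was at 1258 and 932 at day 0 and 7335, 7024 and 4766 in Treg of treated hosts (log2 change 2.53, SE 0.331, limma adjusted p 3.43e-06). Zbp1 was at 2537 and 2187 and 7545, 8110.1 and 9216 (log2 change 1.81, SE 0.239, limma adjusted p 3.88e-06). Ifi27l2a was at 16535 and 11595 and 60598, 68070.1 and 58636 (log2 change 2.17, SE 0.324, limma adjusted p 2.13e-05), and Isg20 at 1408 and 1301 and 5409, 6615 and 6714 (log2 change 2.20, SE 0.337, limma adjusted p 3.11e-05). The groups did not overlap for any of the 4. Oas2 had the greatest change, 3.63, from 65.9 and 59.9 to 940.2, 783 and 671. By role, both IFIT genes, 4 of 5 OAS genes and 5 of 7 antiviral effectors rose, while none of the Schlafen or PYHIN genes did. Without day 0 replicate JL027 the count was 11 higher and 1 lower. Of 9 erythroid markers 5 were also higher, with sums of 132 to 460.2 at day 0 and 1713 to 50561 in treated hosts. Of 7 NK cell markers 2 were higher and 4 lower, with sums of 486 to 701 and 5399 to 6599.6. The part of both was not tested, while the myeloid sums were 6060.0 to 6077 and 6980.0 to 11775.

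The Treg were also set against the CD4 conventional cells of the same kind of host. In Treg-treated hosts 15 members were higher in Treg and 1 lower, beside 13.9% and 16.1% of all genes, so the share of members called higher was above the share of all genes. Irf9 was at 2853, 2952, 4481 and 3624 in CD4 cells and 6252, 5807 and 6220.4 in Treg (log2 change 0.83, SE 0.168, limma adjusted p 7.50e-04). Ifit1 was at 1220.0, 1265, 2874 and 2069 and 3983, 4593 and 4024 (log2 change 1.27, SE 0.279, limma adjusted p 0.00159), Oas2 at 83.5, 76.9, 272 and 117 and 940.2, 783 and 671 (log2 change 2.71, SE 0.600, limma adjusted p 0.00163), and Slfn8 at 416, 322, 1659 and 563 and 2336, 2499.6 and 2666 (log2 change 2.07, SE 0.419, limma adjusted p 7.61e-04). In all 4 every Treg library was above every CD4 library. Slfn1 was the member that was lower, at 1334, 1364 and 1518 in Treg (log2 change -0.55, SE 0.165, limma adjusted p 0.0138). The length slopes of the Treg libraries were 0.0386 to 0.0573, above those of the CD4 libraries, and with the slope as a covariate 1 of the 16 calls, Trim30a, was kept, while Oas3 and Cmpk2 turned sign (Oas3 -0.46, Cmpk2 -0.13). The changes of Irf9, Ifit1, Oas2 and Slfn8 were then 0.49, 0.59, 0.90 and 0.61, none of them called (limma adjusted p 0.05004, 0.195, 0.325 and 0.205), and 9 members not called before were called, 8 higher and 1 lower. Of the 15 myeloid markers 2 were higher and 5 lower in Treg, and with their sum as a covariate 7 of the 16 calls were kept. With array weights 25 members were called. Leaving out Treg replicate JL019-1 gave 10 higher and 0 lower. At day 0 the count was 1, Slfn1 again, lower in Treg (1484 and 1488) than in CD4 cells (2627 and 2567), and Slfn1 was not called when any 1 of the 4 libraries was left out. There 1.34% of all genes were lower and 2.54% higher. With the recipient as a replicate block the count was 1 member higher and 2 lower. Day 0 cells have no recipient, and there the block ties libraries of the same prefix.

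**Figure D5:**
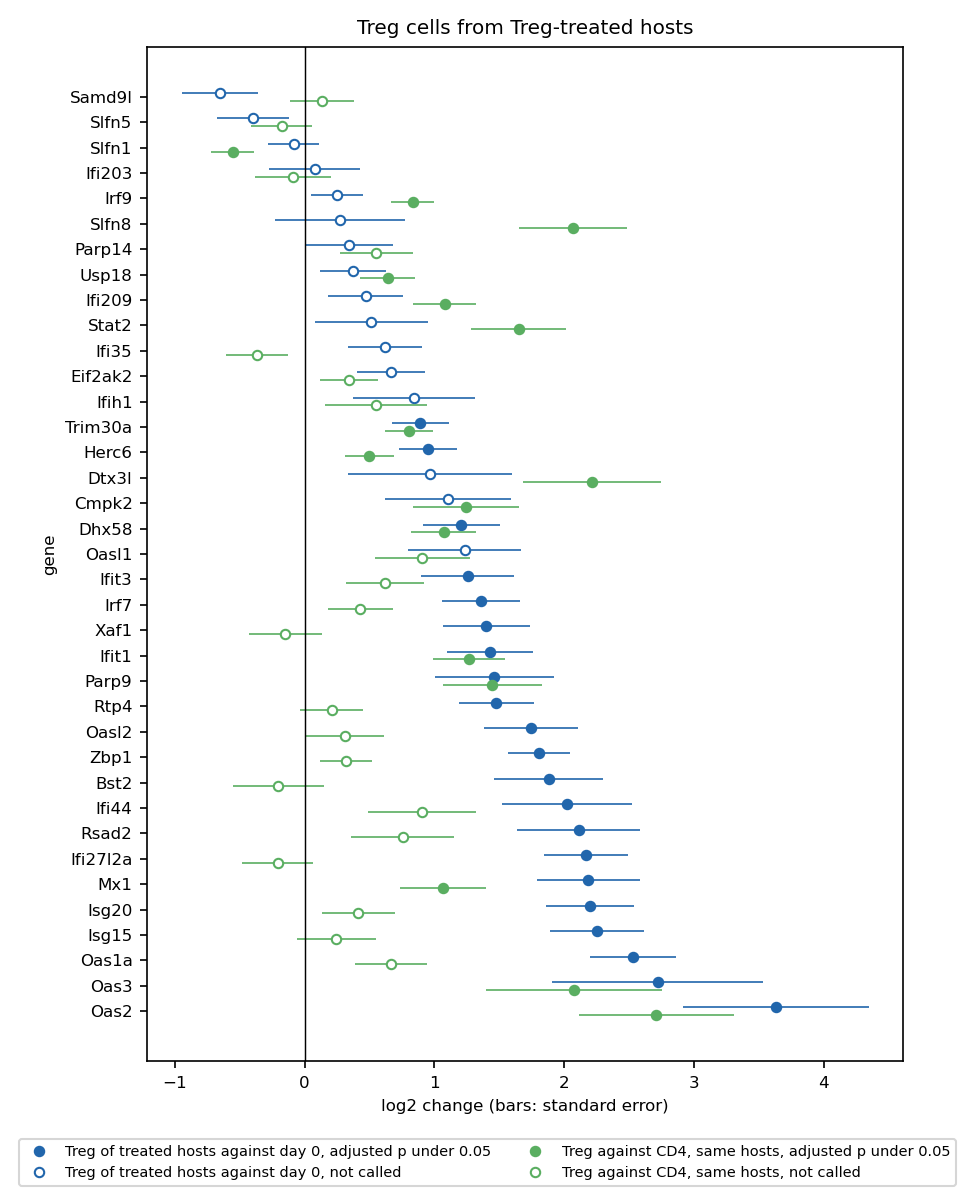
Log2 changes of the 37 genes, with standard errors, for Treg of Treg-treated hosts against day 0 Treg (blue) and against CD4 cells of Treg-treated hosts (green). Filled points passed the test, 21 in the first comparison and 16 in the second. Slfn1 is the 1 filled point left of 0.

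CD8 and CD4 cells were also compared within each kind of host. At day 0, 2 members differed, Slfn5 and Slfn1, both lower in CD8 cells (backgrounds 1.10% lower and 2.22% higher), and neither was called when any 1 of the 4 libraries was left out. In syngeneic hosts 2 members were higher in CD8 cells, Mx1 and Usp18, and 3 lower, Slfn5, Isg20 and Ifih1 (backgrounds 4.98% and 6.98%). Both counts lay near the background. The count was 2 higher and 2 lower without CD4 replicate JL019-2, and 3 in all without CD4 JL027 or CD8 JL019-1. With quantile normalisation 1 was higher and 3 lower. Fitted on the 2 groups alone 1 was called, with array weights 16, with the length slope as a covariate 11 and with the myeloid sum as one 10, the last 2 keeping 4 of the 5 calls each. Of the 15 myeloid markers 4 were lower in CD8 cells and none higher (without CD4 JL019-2 0 higher and 2 lower), and of the 7 NK cell markers 6 were higher. In allogeneic hosts 11 were lower in CD8 cells and none higher (backgrounds 3.09% and 3.05%). In Treg-treated hosts 19 were lower and none higher (backgrounds 4.71% and 4.90%), and the 11 of allogeneic hosts were all among the 19. Fitted on the 2 groups alone the allogeneic count was 18 and with array weights 20, all lower. No myeloid marker was called in either kind of host. Of the 7 NK cell markers 4 were higher in CD8 cells of allogeneic and 3 in those of Treg-treated hosts, and 0 were lower. Of the 11 B cell markers 1 was higher and 2 were lower in each kind of host. The part of the NK and B cell markers was not tested. Slfn5 was at 1539, 995, 939.5 and 903 in CD4 and 264, 222, 196 and 205 in CD8 cells of allogeneic hosts (log2 change -2.27, SE 0.215, limma adjusted p 4.48e-08). Oasl2 was at 902, 655, 618 and 587 and 213, 132, 168 and 115 (log2 change -2.15, SE 0.281, limma adjusted p 8.19e-06). In Treg-treated hosts Ifi27l2a was at 80301, 89501, 43516 and 85767 in CD4 and 5955, 15368, 6567 and 7275 in CD8 cells (log2 change -3.15, SE 0.251, limma adjusted p 1.50e-09), the largest difference of any member between the 2 cell types. The CD4 and CD8 values of these 3 genes did not overlap in the hosts named.

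The rest of the pathway was followed with lists of genes that are no members. Of 16 receptor and signalling genes 2 were higher and 7 lower in CD8 cells of allogeneic against syngeneic hosts, beside 10.4% and 10.7% of all genes. Ifnar2, a chain of the type I receptor, was among those lower (log2 change -2.32, SE 0.266, limma adjusted p 2.00e-07), as was Socs1, which blocks the receptor kinases (log2 change -2.35, SE 0.291, limma adjusted p 6.79e-07), and Ifngr1, a chain of the interferon gamma receptor, was higher (log2 change 1.65, SE 0.189, limma adjusted p 1.87e-07). In CD4 cells 2 of the 16 were higher and 2 lower, beside 6.69% and 7.91% of all genes, Ifnar2 again lower (log2 change -1.71, SE 0.266, limma adjusted p 4.23e-05). Ifngr2, the other chain of the interferon gamma receptor, had the most negative change there (log2 change -4.85, SE 0.373, limma adjusted p 3.33e-10). When CD4 syngeneic replicate JL019-2 was left out these counts were 1 higher and 4 lower, with log2 change -1.30, limma adjusted p 6.78e-04 for Ifnar2 and log2 change -4.42, limma adjusted p 5.67e-09 for Ifngr2. Under Treg treatment 4 were higher and 4 lower in CD4 cells, beside 10.7% and 11.5% of all genes, Socs1 among the higher (log2 change 1.10, SE 0.269, limma adjusted p 0.0123), and none was called in CD8 cells.

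Of 25 listed ligands and nucleic acid sensors 13 were measured, and none of these is a type I interferon gene. Ifng, the interferon gamma gene, was higher in allogeneic than syngeneic hosts in both cell types, at 6530.5, 5417, 7143 and 6275 against 3581, 2067 and 1042 in CD8 libraries (log2 change 1.67, SE 0.319, limma adjusted p 2.89e-04) and at 3919, 4203, 5069.5 and 4537 against 970.0, 713 and 837 in CD4 libraries (log2 change 2.40, SE 0.319, limma adjusted p 4.69e-06). Of the 13, 2 were called higher and 3 lower in CD8 cells, and 1 was called higher and 3 lower in CD4 cells (2 higher and 2 lower without CD4 syngeneic JL019-2). In CD8 cells Irf5, a factor downstream of Toll-like receptors, was the other higher one (log2 change 3.11, SE 0.378, limma adjusted p 5.11e-07), and Tlr7 and Cgas, sensors of RNA and DNA, were among the lower ones (log2 change -3.44, SE 0.601, limma adjusted p 9.64e-05 for Tlr7). Of 33 genes that mainly follow interferon gamma, 1 was higher and 14 lower in CD8 cells of allogeneic hosts, beside 10.4% and 10.7% of all genes. In CD4 cells 2 were higher and 4 lower, near the 6.69% and 7.91% of all genes. Gbp8 and Tgtp1, GTPases of cell-autonomous defence, were among the lower ones in CD8 cells (log2 change -1.77, SE 0.228, limma adjusted p 1.23e-06 for Gbp8 and log2 change -2.34, SE 0.316, limma adjusted p 2.79e-06 for Tgtp1). Of 68 further type I genes 5 were higher and 29 lower in CD8 cells, and 5 higher and 10 lower in CD4 cells. Ms4a4c and Trim30d had the lowest p of the lower ones in CD8 cells (log2 change -4.06, SE 0.314, limma adjusted p 1.71e-10 for Ms4a4c), and Ifi211, another PYHIN gene, and Ifitm2, which blocks viral entry, the higher ones (log2 change 4.19, SE 0.528, limma adjusted p 9.13e-07 for Ifitm2). Leaving out CD4 syngeneic replicate JL019-2 made the CD4 counts 1 higher and 5 lower of the 33 and 7 higher and 11 lower of the 68, with log2 change 2.29, limma adjusted p 5.31e-05 for Ifng. The medians of the 68, the 33 and the 16 genes in CD8 cells were -0.72, -0.84 and -0.54, against 0.02 over all genes.

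In Treg of treated hosts against day 0, 20 of the 68 further type I genes were higher and 2 lower, 10 of the 33 interferon gamma genes higher and none lower, and 3 of the 16 receptor and signalling genes higher and none lower, beside 8.43% and 4.89% of all genes. In syngeneic hosts against day 0 the 68 genes had 20 higher and 2 lower in CD8 cells (backgrounds 13.0% and 11.3%) and 13 higher and 5 lower in CD4 cells (backgrounds 9.90% and 3.13%). Ifi211 and Ifitm1 had the lowest p of the higher ones in CD4 cells (log2 change 5.22, SE 0.468, limma adjusted p 2.90e-09 for Ifi211), and Phf11a and Lgals3bp those in CD8 cells (log2 change 2.71, SE 0.276, limma adjusted p 1.63e-07 for Phf11a). Of the 33 interferon gamma genes 9 were higher in syngeneic CD8 cells and 1, Cxcl10, in CD4 cells (log2 change 3.14, SE 0.605, limma adjusted p 5.73e-04). Leaving out CD4 syngeneic replicate JL019-2 made the CD4 counts 13 higher and 0 lower of the 68 and 2 higher and 0 lower of the 33, with log2 change 4.45, limma adjusted p 5.79e-10 for Ifi211 and log2 change 2.41, limma adjusted p 0.00533 for Cxcl10. In CD4 cells under Treg treatment 8 of the 68 were higher and 5 lower and 8 of the 33 higher and none lower, beside 10.7% and 11.5% of all genes, so the count of the 68 lay near the background. B2m, the light chain of class I molecules, was among the 8 of the 33 (log2 change 1.15, SE 0.265, limma adjusted p 0.0103). In CD8 cells no gene of either list was called.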

How the data were processed

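RNA of sorted T cells was turned into full-length cDNA with the SMARTer v4 chemistry and into libraries with Nextera XT, per the labels' protocols. Per the submitters' processing notes, FastQC 0.11.7, kallisto and DESeq2 were used with builds GRCm38 and mm10. The deposited table holds a signal per gene and library: counts that the authors scaled between libraries. Each row's mean matched the base mean column of the same file. Only 1.96% of values were whole within 0.001, no step per read was found, and depth is therefore unknown. The T-cell receptor tables were not used here.

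The 37 members and the other lists were chosen with earlier results of these data known. limma 3.58.1 in R 4.3.3 fitted group means of all 31 libraries to log2(value + 1), with trend and robust options, for 19 comparisons, each adjusted over 16741 genes (Benjamini-Hochberg, threshold 0.05). All genes had a mean of at least 1. 1 row had no symbol. No 2 libraries were identical. Per-library values and full statistics were set for up to 4 called members per direction by lowest p and any called against the majority. A lack of overlap between groups in genes picked this way is no further evidence, and its share over all genes was not counted. Such values of further members, and of Ikzf2, were added after they were seen. Of the other lists up to 2 called genes per direction were named. Gene spans came from RefSeq GRCm38.p6 by symbol (37 of 37 members, 94.8% of genes). Nothing states that libraries came from separate animals, so p-values measure only the spread between libraries, which may be technical. CD4 and CD8 libraries of the same recipient name deviated together in allogeneic hosts (correlations of 0.135 to 0.416) but not throughout (-0.107 to 0.428 in Treg-treated and -0.114 to 0.145 in syngeneic hosts), and CD4 and Treg libraries did not (-0.0682 and -0.0570). At day 0, where libraries were paired by prefix alone, the correlation was -0.319 for CD4 and CD8 and -0.207 for CD4 and Treg libraries. The pairing rests on the labels. Alternatives were other pseudocounts, filters and scalings, array weights, a gene length trend, a recipient block, single prefixes, and each library left out. The script was tested on simulated data. Python 3.11.15 was used.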

Additional observations from a re-analysis of the deposited data

Results flagged for a closer look

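Single libraries far from the other 3 of their group, by Dixon's test at 95%, were found for 15 of 148 pairs of a member and a group of 4 libraries. Chance flags about 1 in 20 groups. CD8 Treg-treated replicate JL019-2 stood apart for Ifi27l2a 15368 (5955 to 7275 in the other 3), Usp18 1329 (903 to 929.9 in the other 3), Xaf1 4357 (1442 to 1924 in the other 3) and Ifi203 10846 (3288 to 4482 in the other 3). CD4 Treg-treated replicate JL027-1 stood apart for Oas3 2205 (360.3 to 384 in the other 3), Stat2 1205 (477 to 584 in the other 3), Zbp1 5205 (7104 to 7207 in the other 3) and Dtx3l 4823 (855 to 1419.7 in the other 3). CD4 allogeneic replicate JL019-1 stood apart for Ifit1 1678 (1233 to 1304 in the other 3), Dtx3l 5356 (4058 to 4229 in the other 3) and Slfn5 1539 (903 to 995 in the other 3). CD8 allogeneic replicate JL027-2 stood apart for Usp18 580.3 (831 to 872 in the other 3) and Slfn8 468 (638 to 662 in the other 3). CD4 Treg-treated replicate JL019-1 stood apart for Eif2ak2 891 (1283 to 1317 in the other 3). CD8 allogeneic replicate JL027-1 stood apart for Parp9 5603 (3963 to 4204 in the other 3). In CD4 Treg-treated replicate JL027-1 the length slope was 0.0159 and in CD8 Treg-treated replicate JL019-2 it was -0.124, against -0.0986, -0.121 and -0.0689 in the other CD4 and -0.00712, 0.0149 and -0.0561 in the other CD8 libraries of Treg-treated hosts. Its part in these values was not tested.

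The change from syngeneic to allogeneic hosts differed between CD8 and CD4 cells by the interaction test, with a CD8 minus CD4 difference in log2 change of -1.82 for Ifi27l2a, -1.51 for Ifit3, -1.39 for Usp18, -1.52 for Rtp4, -0.88 for Trim30a, -1.27 for Ifi209 and -1.15 for Slfn1. The changes in CD8 and CD4 cells were -1.31 and 0.51 for Ifi27l2a and -1.38 and -0.23 for Slfn1. CD4 syngeneic replicate JL019-2, the library that stands apart, is in this test, and without it 6 members were called.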

How the results depend on the processing

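Of the recomputed counts of called members 290 stayed within 1.5 times the value reported and 74 did not. For up to 4 called members per direction in each of 5 comparisons (allogeneic against syngeneic in CD4 and in CD8, their difference, CD4 Treg-treated against allogeneic, and CD8 syngeneic against day 0), 432 recomputed changes kept sign and call, 38 kept the sign only and 1 turned. Calls that held in every alternative were 16 of 25 for CD8 allogeneic against syngeneic, 15 of 21 for CD8 Treg-treated against syngeneic, 8 of 17 for CD8 syngeneic and 7 of 16 for CD8 allogeneic against day 0, 10 of 21 for Treg of treated hosts against day 0, 8 of 11 and 13 of 19 for CD8 against CD4 in allogeneic and Treg-treated hosts, 4 of 7 for the difference of the allogeneic changes, 4 of 14 for CD4 allogeneic against day 0, and 0 or 1 in each other comparison with calls. Over all 218 calls of members in the 19 comparisons 5 turned sign in some setting: with the length trend as a covariate Dtx3l in CD4 Treg-treated against allogeneic (0.23) and Oas3 and Cmpk2 in Treg against CD4 in Treg-treated hosts (-0.46 and -0.13), and with the summed myeloid markers Isg15 in CD4 allogeneic against syngeneic (0.08) and Bst2 in CD4 syngeneic against day 0 (-0.55). For the loss or gain of calls below the cause was not tested, other than fewer libraries where some were left out. The covariates and the libraries of groups of 2 left out were added after the data were seen. Fits with the summed myeloid markers rest much on CD4 syngeneic JL019-2, and none was run without it. With only the groups compared in the fit the count became 5 for CD4 allogeneic against syngeneic, 4 for difference of the allogeneic changes, CD8 minus CD4, 1 for CD4 Treg-treated against syngeneic, 0 for CD4 syngeneic against day 0, 25 for CD4 allogeneic against day 0, 8 for Treg against CD4 at day 0, 6 for CD8 against CD4 at day 0, 1 for CD8 against CD4 in syngeneic hosts and 18 for CD8 against CD4 in allogeneic hosts. With array weights the count became 16 for CD4 allogeneic against syngeneic, 18 for difference of the allogeneic changes, CD8 minus CD4, 23 for CD4 Treg-treated against allogeneic, 11 for difference of the Treg effects, CD8 minus CD4, 25 for CD4 Treg-treated against syngeneic, 22 for CD4 syngeneic against day 0, 24 for CD4 allogeneic against day 0, 10 for Treg against CD4 at day 0, 25 for Treg against CD4 in Treg-treated hosts, 16 for CD8 against CD4 in syngeneic hosts and 20 for CD8 against CD4 in allogeneic hosts. Within prefix JL019 the count became 0 for CD4 allogeneic against syngeneic and 22 for CD4 Treg-treated against allogeneic. With the length trend as a covariate the count became 15 for CD4 allogeneic against syngeneic, 12 for difference of the allogeneic changes, CD8 minus CD4, 0 for CD4 Treg-treated against allogeneic, 4 for CD4 Treg-treated against syngeneic, 11 for Treg against CD4 at day 0, 10 for Treg against CD4 in Treg-treated hosts and 11 for CD8 against CD4 in syngeneic hosts. With quantile normalisation the count became 4 for difference of the allogeneic changes, CD8 minus CD4 and 2 for Treg against CD4 at day 0. Within prefix JL027 the count became 0 for CD4 Treg-treated against allogeneic. With the summed myeloid markers as a covariate the count became 1 for CD4 Treg-treated against allogeneic, 21 for CD4 Treg-treated against syngeneic, 4 for CD4 syngeneic against day 0, 9 for Treg against CD4 in Treg-treated hosts and 10 for CD8 against CD4 in syngeneic hosts. With libraries centred on their medians the count became 0 for Treg against CD4 at day 0. With the recipient as a replicate block the count became 3 for Treg against CD4 at day 0. With the gene length trend removed the count became 0 for Treg against CD4 at day 0. With each library left out in turn the count ran from 4 to 10 for CD4 allogeneic against syngeneic, 4 to 10 for difference of the allogeneic changes, CD8 minus CD4, 6 to 17 for CD4 Treg-treated against allogeneic, 2 to 17 for CD4 Treg-treated against syngeneic, 6 to 14 for CD4 syngeneic against day 0, 8 to 16 for CD8 syngeneic against day 0, 5 to 13 for CD4 allogeneic against day 0, 8 to 15 for CD8 allogeneic against day 0, 12 to 19 for Treg Treg-treated against day 0, 0 to 1 for Treg against CD4 at day 0, 10 to 18 for Treg against CD4 in Treg-treated hosts, 0 to 0 for CD8 against CD4 at day 0 and 3 to 6 for CD8 against CD4 in syngeneic hosts. The recipient as a replicate block ties the cell types of 1 host, and at day 0 those of 1 prefix. It gave 14 for CD8 against CD4 in allogeneic hosts, 21 for CD8 against CD4 in Treg-treated hosts and 17 for Treg against CD4 in Treg-treated hosts. It moved no count but that of Treg against CD4 at day 0 beyond 1.5 times. Blocks on the prefix or on the replicate label moved none. Allogeneic and Treg-treated libraries share only numbers. Centring libraries on their medians moved the median of all genes by over 0.1 on the log2 scale in 11 of the 19 comparisons, most in CD4 Treg-treated against syngeneic (0.31), Treg against CD4 in Treg-treated hosts (-0.22), CD4 Treg-treated against allogeneic (0.20), CD8 against CD4 in syngeneic hosts (0.20) and CD8 syngeneic against day 0 (0.19). Array weights by restricted likelihood did not converge, and gene-by-gene weights were used instead, a choice made after that result was seen. Depth is unknown, so no floor of detection can be given.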
